A study of Mus musculus with 12 samples.

Results

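The 50 genes described here encode the working parts of the lysosome: 5 membrane proteins, 13 cathepsins and other proteases, 1 protease inhibitor, 16 glycan hydrolases, 10 lipid hydrolases and lipid transfer proteins, 3 phosphatases and nucleases, and 2 regulators. They were taken by name as a list, and all 50 were found among the 46517 genes of the count table. All 50 also passed the filter on low counts that left 14216 genes for testing.

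Lysosomes are the acidic compartments in which a macrophage degrades what it engulfs, along with worn parts of itself. Their hydrolases are made as inactive precursors, reach the lysosome mostly through mannose 6-phosphate receptors, and are switched on by acid and by each other. Transcription factor TFEB and its relatives bind E-box sequences near many of these genes and can raise them together, while cystatin C, encoded by Cst3, is secreted and blocks cysteine cathepsins outside the cell. In the vessel wall, cathepsins are known for their ability to cleave elastin and collagen.

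Macrophages of wild-type adult C57/BL6 mice were sorted as live cells carrying CD45, CD64, MerTK, CD11b and F4/80, then divided by the surface hyaluronan receptor LYVE1. Aortic cells came from 30 mice, and adipose cells from 20 mice, whose epididymal and subcutaneous depots were combined. This gave 4 groups of 3 libraries: aorta LYVE1+, aorta LYVE1-, fat LYVE1+ and fat LYVE1-. The animals were pooled, and the labels leave unsaid if libraries within a group stem from distinct pools, so p-values measure only the spread between these libraries, which may be technical. LYVE1 was the sorting marker, and no group carries a deletion, transgene or treatment.

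The libraries held 5049936 to 29792301 counts in total. Macrophage markers used in the gate summed to between 5000 and 9760 CPM (counts relative to the scaled library total) in the 12 libraries. Both fat libraries numbered 1 stood apart: mitochondrial genes took 8.85% of counts in the LYVE1+ library and 12.1% in the LYVE1- library, against 1.79% to 3.2% in the other 10. Their summed erythroid markers reached 26000 and 5270 CPM, T and NK cell markers 196 and 107 CPM, and adipocyte markers 139 and 147 CPM, where the other fat libraries had 211 to 287, 11.3 to 24.1 and 32.4 to 57.1 CPM. In the aorta, mast cell markers summed to 46.1 to 79.9 CPM in LYVE1- libraries and 1.84 to 12.7 CPM in LYVE1+ libraries, and eosinophil markers to 46.4 to 146 CPM and 4.6 to 5.47 CPM. In fat, eosinophil markers summed to 139 to 369 CPM in LYVE1- and 8.73 to 90.5 CPM in LYVE1+ libraries, and mast cell markers to 10.3 to 17.6 and 2.13 to 50.9 CPM. Most of the fat LYVE1- eosinophil sum was Ear2, with a mean of 204.3 CPM against 22.86 CPM in fat LYVE1+. Of the others in fat LYVE1- libraries, Epx averaged 0 CPM and Prg2 0.033 CPM. Siglecf averaged 5.74 CPM in fat LYVE1- and 3.361 CPM in fat LYVE1+, and Ccr3 went the other way, at 6.458 and 11.05 CPM. Dendritic cell markers summed to 324 to 334 CPM in aortic LYVE1+ and 421 to 548 CPM in aortic LYVE1- libraries, with 7 of 8 negative and 1 called lower. In fat the sums overlapped, reaching 568 and 588 CPM, with 5 of 8 negative (median log2 -0.89) and 2 of the 3 positive ones called higher. Lymphatic endothelial markers, whose cells also carry LYVE1, summed to 13.9 to 43.8 and 9.37 to 18.6 CPM in the aorta and 2.91 to 16.4 and 1.63 to 7.64 CPM in fat, with 2 of 4 tested called higher on average. All 8 fibroblast markers had negative log2 values (lower in LYVE1+ cells) in both tissues, none of them called. The part of these other cells in the differences between sorts below was not tested. Titles of 2 aortic LYVE1+ libraries begin with RMM and those of the other 4 aortic libraries with RHH, and all fat titles begin with RMM. What the prefix stands for is not given, and in the aorta it is partly confounded with the sort.

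Promoter sequences of 4 genes called in the comparisons below are shown first, 3 with the E-box core and 1 without. They were picked with their values known, and no relation of the core to the direction was tested. Arsg and Grn, both called higher in LYVE1+ cells, lack the core in this window, and Gla, which holds it, had negative values in both tissues. Each line gives the 250 bases before the transcript start from RefSeq (GRCm38.p6), 5′ to 3′ on the gene's strand, with CACGTG and, where present, its flanking T or A of TCACGTG or CACGTGA in capitals.
Mcoln1, chr8:3500269-3500518, plus strand: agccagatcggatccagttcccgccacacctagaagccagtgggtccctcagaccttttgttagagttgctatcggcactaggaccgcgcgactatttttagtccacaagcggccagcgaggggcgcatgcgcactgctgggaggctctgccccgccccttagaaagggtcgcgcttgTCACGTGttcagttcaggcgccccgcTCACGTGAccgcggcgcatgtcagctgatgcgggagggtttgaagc
Ctsd, chr7:142387828-142388077, minus strand: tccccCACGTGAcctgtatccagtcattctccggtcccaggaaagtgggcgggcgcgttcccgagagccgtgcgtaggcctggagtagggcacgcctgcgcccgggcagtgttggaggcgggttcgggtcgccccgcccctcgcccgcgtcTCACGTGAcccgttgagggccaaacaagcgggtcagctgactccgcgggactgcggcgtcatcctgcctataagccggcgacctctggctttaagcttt
Sgsh, chr11:119355511-119355760, minus strand: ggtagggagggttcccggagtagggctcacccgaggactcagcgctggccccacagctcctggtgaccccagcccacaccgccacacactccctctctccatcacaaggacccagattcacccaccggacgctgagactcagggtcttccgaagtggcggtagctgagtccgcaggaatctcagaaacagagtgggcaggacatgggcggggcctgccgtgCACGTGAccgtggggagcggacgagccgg
Gm2a, chr11:55097735-55097984, plus strand: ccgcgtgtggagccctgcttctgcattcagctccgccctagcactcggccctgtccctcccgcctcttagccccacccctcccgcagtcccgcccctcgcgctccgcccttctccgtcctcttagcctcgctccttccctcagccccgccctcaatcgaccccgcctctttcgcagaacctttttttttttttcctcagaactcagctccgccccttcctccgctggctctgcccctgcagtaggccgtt
Mcoln1 holds cores starting at -71 and -45 from the transcript start, Ctsd at -245 and -98, and Sgsh at -29. The Gm2a window has no match to these letters. Of the 50 genes, 45 matched the promoter table. In windows from 250 bases before to 50 bases after the start, CACGTG was found on either strand for 14 of 45 genes (31.1%), where 8.09% of all 27025 genes in the table had it. TCACGTG, which contains the core, was found for 12 of 45 (26.7%) against 4.29%. The 14 genes were Lamp1, Cln3, Mcoln1, Ctsa, Ctsd, Ctsf, Ctsl, Lgmn, Gaa, Gla, Glb1, Naglu, Sgsh and Arsa. A match is a description of the letters, not evidence of binding.

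Levels were first compared between genes, per kilobase of merged exon length and scaled to the same total in each library (a TPM-like level). The group was abundant: 11 genes stood among the 100 highest of 14168 genes with a known length, 20 among the highest 500 and 26 among the highest 1000, and 48 lay above the median gene. The median over the 50 genes was 154.1 on this scale, compared with 10.48 over all genes. Cst3 was highest at rank 18 (6040.2), followed by Ctsb, a cysteine cathepsin, at rank 25 (4952.7), and Psap, the precursor of the saposins that present sphingolipids to hydrolases, at rank 32 (4512.8). Ctss, Lgmn, Ctsd, Grn, Lamp1, Ctsz, Hexa and Ctsc completed those in the top 100. At the low end stood Tfeb (10.5), Ctsk (7.57) and Galc (6.94). Merged exon length counts every annotated exon, so the level of a gene with long rare transcripts is understated.

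**Figure D1:**
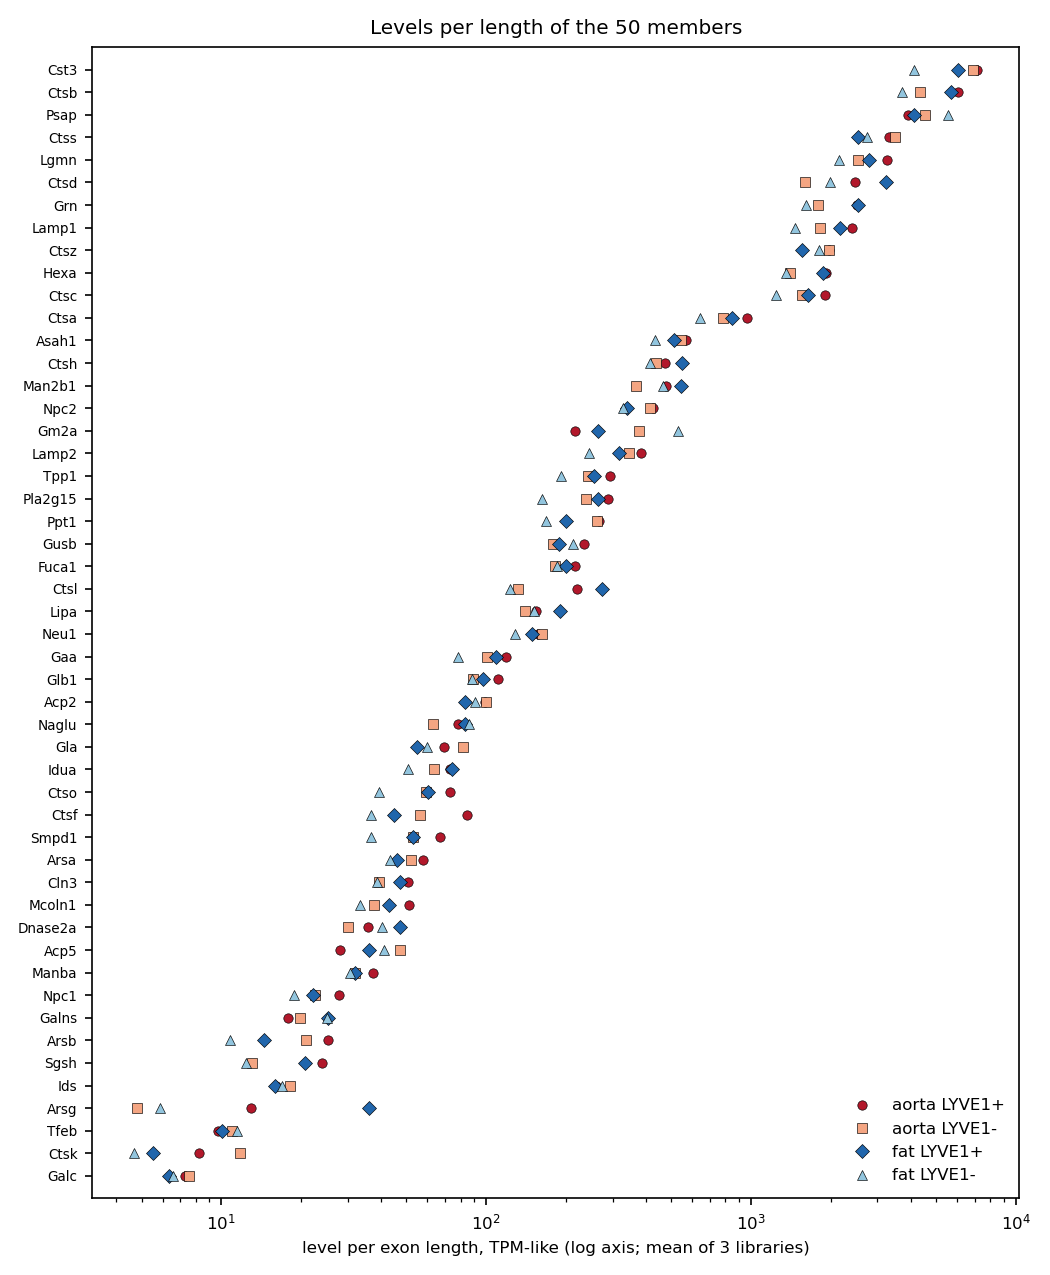
Level per exon length of the 50 lysosomal genes (x axis, TPM-like, log scale), each symbol the mean of 3 libraries of a group. Levels run from about that of Galc (6.94 over all libraries) to that of Cst3 (6040.2), and the distance between groups within a gene is small beside the distance between genes.

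Together the 50 genes took between 2.987% and 5.677% of the scaled counts. Their summed level was 50072, 48320 and 46266 CPM in the aortic LYVE1+ libraries and 36221, 42159 and 43025 CPM in the aortic LYVE1- libraries. In fat it was 35010, 55540 and 56774 CPM in LYVE1+ cells and 29867, 43761 and 41742 CPM in LYVE1- cells. The aortic groups did not overlap, whereas in fat the LYVE1+ library numbered 1 lay below 2 LYVE1- libraries. These CPM values, like those of lysosomal genes below, are scaled by TMM factors, which correct for differences in library composition. CPM values of cell type markers and of genes overlapping the 50 are relative to the plain library total. In a bulk library, fewer cells of a type and less RNA per cell cannot be told apart.

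The proteases supplied most of this sum, at 27109 ± 1176 CPM (SD, n = 3) in aortic LYVE1+ and 21163 ± 2359 in aortic LYVE1- libraries, and 27382 ± 8189 and 19321 ± 5209 in the corresponding fat libraries. Glycan hydrolases summed to 4258 ± 117.2 and 3399 ± 402 CPM in the aorta and to 4601 ± 950.2 and 3776 ± 769 CPM in fat. The lipid class had a lower sum in LYVE1+ cells, at 6636 ± 506 CPM in LYVE1+ and 7327 ± 363 CPM in LYVE1- cells of the aorta and 7137 ± 1227 and 8526 ± 491 CPM in fat. Psap makes up most of that last sum, and 7 of its 10 genes had positive fold changes in each tissue, with medians of 0.05 and 0.18. Without Psap and Gm2a the other 8 summed to 2644 ± 175.8 and 2497 ± 164.1 CPM in the aorta and to 2541 ± 637.4 and 2123 ± 366.8 CPM in fat, for LYVE1+ and LYVE1- cells.

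The main question was how LYVE1+ and LYVE1- macrophages differ within each tissue. In the aorta none of the 50 genes passed an adjusted p of 0.05 in edgeR's quasi-likelihood test, where 0.542% of all genes did. At an unadjusted p under 0.05 there were 11 of 50 (9 higher and 2 lower in LYVE1+ cells, background 11.3%), and DESeq2 called 2, Arsg higher and Gm2a lower (background 2.53%). In fat 3 genes passed (background 3.93%): Ctsl and Arsg were higher and Gm2a was lower in LYVE1+ cells. DESeq2 called 9 in fat (background 7.07%) and 15 on average (background 10.8%). Averaged over both tissues 7 passed (background 6.34%): Mcoln1, Ctsd, Ctsl, Arsg, Sgsh and Grn were higher and Gm2a was lower. On average DESeq2 also called Lamp1, Cln3, Ctsb, Ctso, Cst3, Hexa and Idua higher and Psap lower. Adjustment was over all genes tested.

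Signs leaned to LYVE1+ cells in both tissues. In the aorta 37 of 50 log2 fold changes were positive with a median of 0.24, against -0.01 over all genes, and in fat 38 of 50 with a median of 0.28, against 0.00. Of all genes 48.55% were positive in the aorta and 50.44% in fat. All 3 LYVE1+ libraries lay above all 3 LYVE1- libraries for 19 genes in the aorta (background 11.1%) and for 9 in fat (background 9.12%), and below them for 2 in each tissue (background 11.3% and 9.83%). Cln3, Mcoln1, Ctsl, Arsg and Grn were separated upwards in both tissues (background 2.94%), Psap and Gm2a downwards (background 2.69%). Separation is not a call, and of these 7 genes Cln3 and Psap passed the main test in no comparison.

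**Figure D2:**
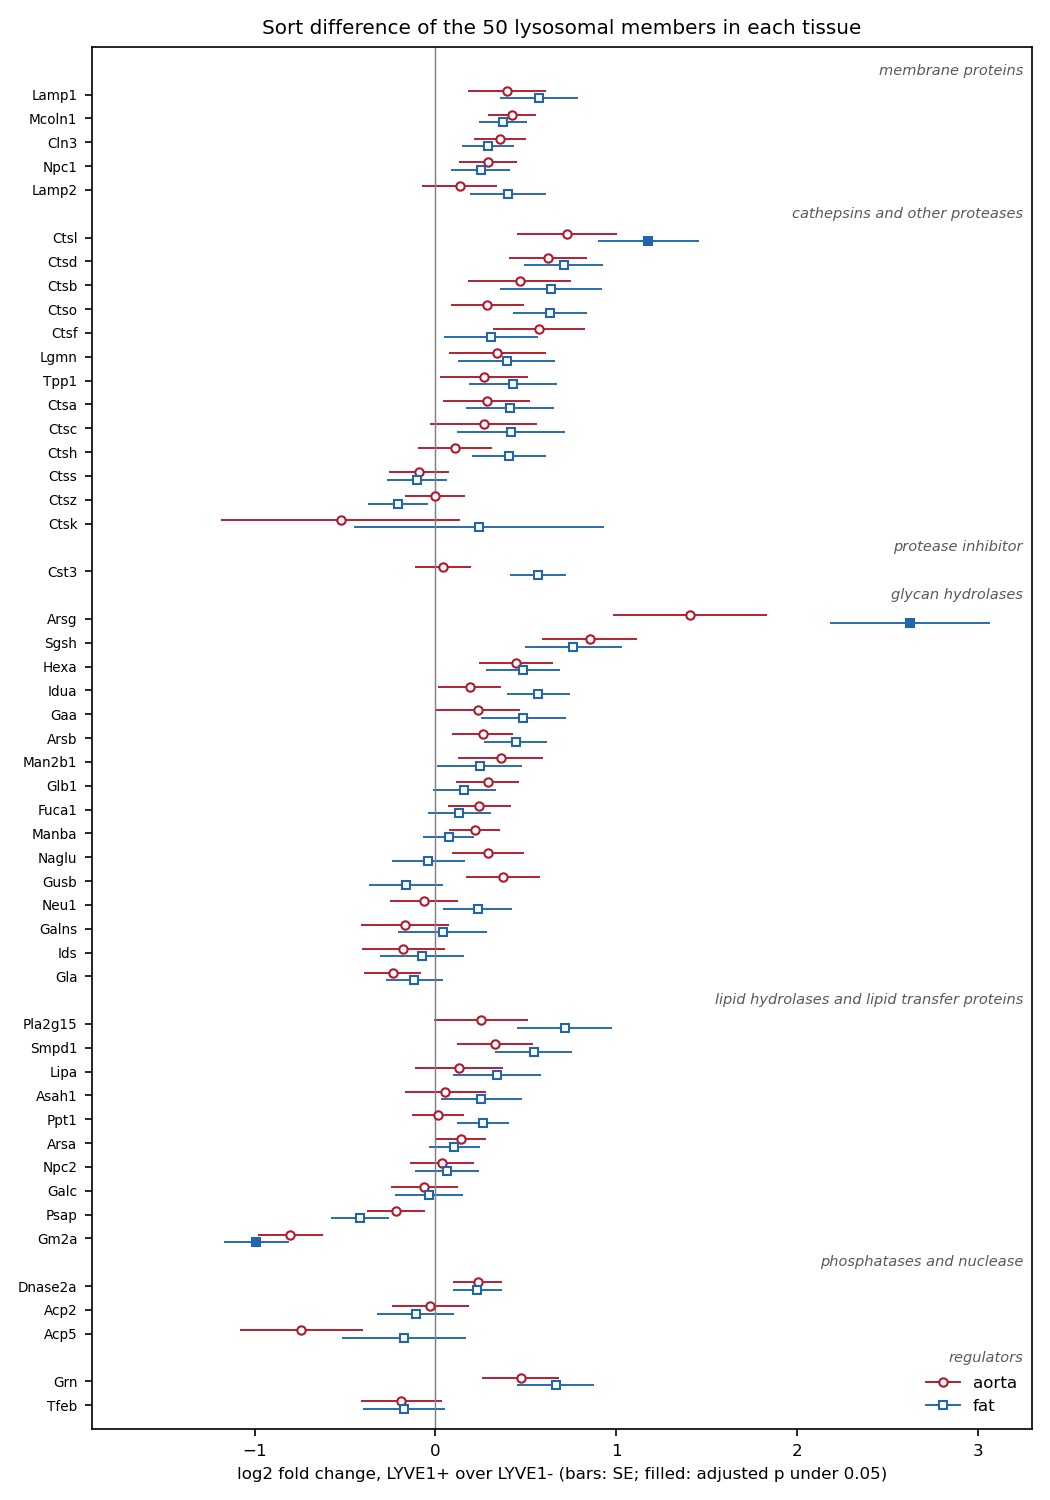
Log2 fold change of LYVE1+ over LYVE1- cells (x axis) for each gene in aorta (circles) and fat (squares), with bars of 1 SE and filled symbols where the adjusted p was under 0.05. Filled symbols are Ctsl, Arsg and Gm2a in fat, and 37 aortic and 38 fat values lie to the right of 0.

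The fat results depend on how the libraries are matched and on the libraries numbered 1. The fat libraries numbered 1 deviated together, while numbers 2 and 3 correlated across numbers about as much as within them. With the library number as a block 13 genes were called in fat (12 higher, 1 lower, background 6.44%): Lamp1, Ctsb, Ctsd, Ctsl, Ctso, Cst3, Hexa, Idua, Arsg, Smpd1, Pla2g15 and Grn higher and Gm2a lower. The block gave 1 call in the aorta (Gm2a, background 1.71%), where numbers did not pair the libraries, and 23 on average (background 10.3%). Leaving out both fat libraries numbered 1 gave 12 calls in fat (background 6.01%), 8 in the aorta (background 3.83%; Ctsb, Ctsd, Ctsf, Ctsl, Hexa, Arsg and Grn higher and Gm2a lower) and 22 averaged over tissues (background 10.6%), and leaving out only fat LYVE1+ library 1 gave 12 (background 6.9%), 1 (background 1.41%) and 18 (background 11%). With both steps together, chosen after seeing the data, 7 genes were called in fat (background 3.68%), 2 in the aorta (background 1.65%) and 12 on average (background 6.63%).

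In those 2 libraries lysosomal genes were low. Fat LYVE1+ library 1 was the lowest of its group for 43 of 50 genes and fat LYVE1- library 1 for 36 of 50, where 40.7% and 40.1% of all genes were lowest there. The median gene of the list lay 0.49 and 0.40 log2 units below the mean of the other 2 libraries of its group. In the aorta, LYVE1- library 1 was lowest for 36 of 50 (36.7% of all genes), with a median difference of -0.25 from the other 2. The part played in these low values by the mitochondrial share and by the erythroid, lymphoid and adipocyte transcripts given above was not tested.

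**Figure D3:**
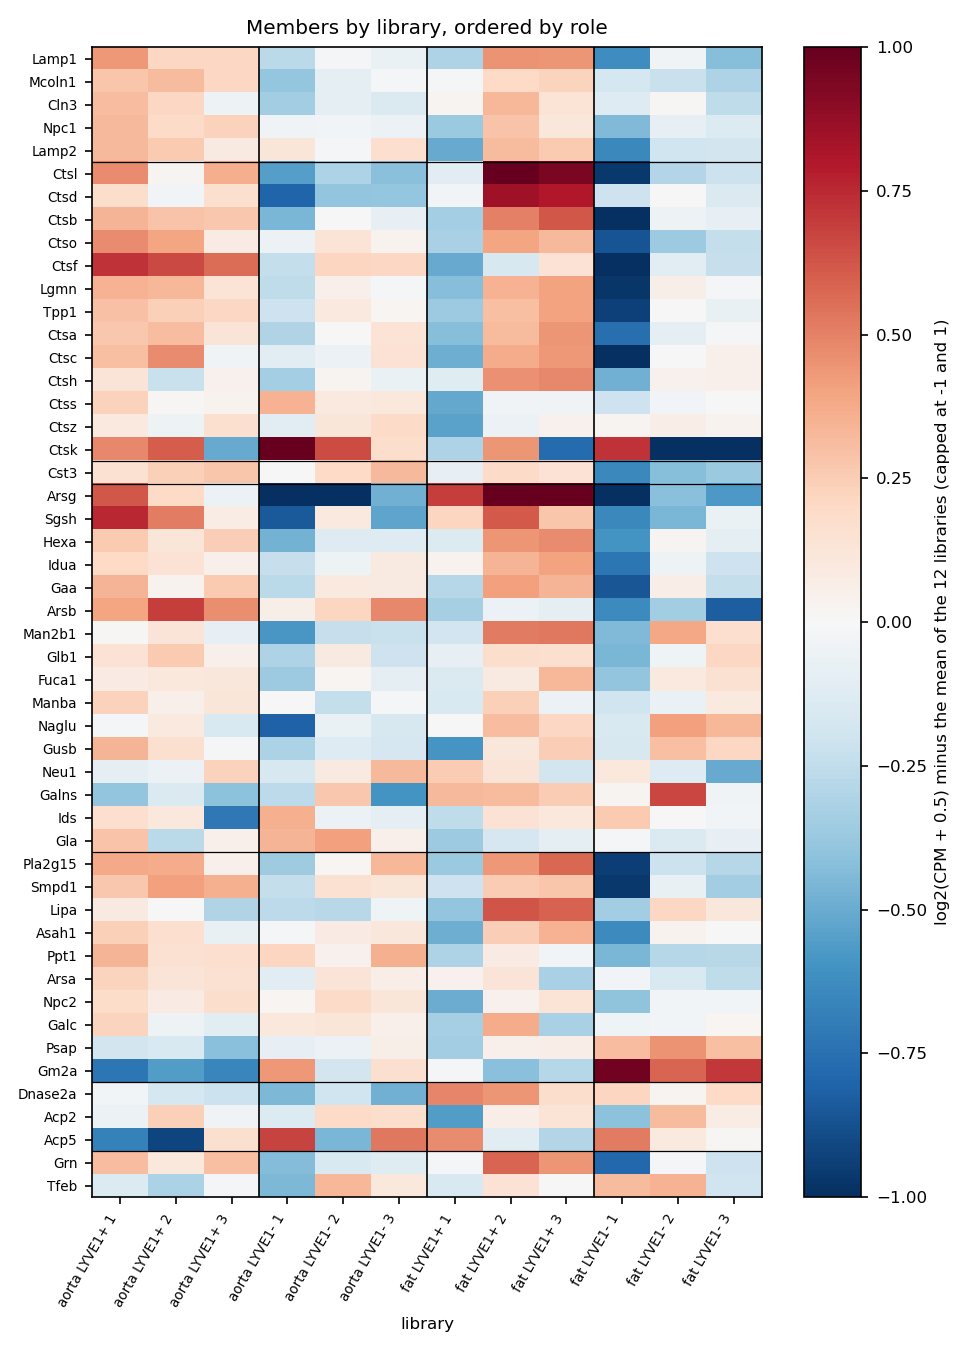
Level of each gene in each of the 12 libraries as log2(CPM + 0.5) minus the gene's mean over the libraries (colour, capped at -1 and 1), with genes ordered by role and libraries by group. The columns of fat LYVE1+ 1 and fat LYVE1- 1 are blue over most rows, being the lowest of their group for 43 and 36 of 50 genes, and the Gm2a row is blue in LYVE1+ and red in most LYVE1- libraries.

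Among membrane proteins, all 5 had positive fold changes in both tissues, and 1 was called on average. Mcoln1 (mucolipin 1, the cation channel that lets calcium out of the lysosome, ENSMUSG00000004567.14, chromosome 8, 3500457 to 3515232, GRCm38) was at 133, 137 and 127 CPM in aortic LYVE1+ and 83.7, 103 and 109 CPM in aortic LYVE1- libraries. In fat it was at 108, 126 and 128 CPM and at 97.1, 94.2 and 88.5 CPM. The groups did not overlap in either tissue. Averaged over tissues it was 1.32-fold higher in LYVE1+ cells (log2 0.40 ± 0.09 SE, adjusted p = 0.0235), with 0.42 ± 0.13 in the aorta (adjusted p = 0.226) and 0.37 ± 0.13 in fat (adjusted p = 0.169). The average call ended without aortic LYVE1+ 1 or 2, aortic LYVE1- 1, fat LYVE1+ 2 or 3, or fat LYVE1- 3 (adjusted p 0.0591 to 0.0851) with no filter on low counts (0.0516) and with a term for the title prefix (0.148).

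Lamp1, the major glycoprotein of the lysosomal membrane, was at 2465, 2099 and 2102 CPM in aortic LYVE1+ libraries and at 1513, 1808 and 1744 CPM in aortic LYVE1- libraries. Its fat values were 1471, 2484 and 2472 CPM and 1188, 1776 and 1360.4 CPM, so that library 1 of the LYVE1+ group fell among the LYVE1- values. It was not called (average log2 0.48 ± 0.15, adjusted p = 0.0828), while DESeq2 called the average (adjusted p = 0.0139). Cln3, the membrane protein lost in juvenile Batten disease, ran from 87 to 112 CPM in aortic LYVE1+ and from 70.8 to 84.2 CPM in aortic LYVE1- cells, and from 91.6 to 113 and from 75.3 to 90.8 CPM in fat. The fold change averaged 0.32 ± 0.10 and missed the threshold (adjusted p = 0.0786). Npc1, which moves cholesterol out of the lysosome, and Lamp2 had log2 values between 0.13 and 0.40 in the 2 tissues. With the prefix term Lamp2 came to -0.0027 in the aorta.

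Proteases had 10 of 13 positive values in the aorta and 11 of 13 in fat, with medians of 0.28 and 0.41, and Ctsl was called in fat, Ctsl and Ctsd on average. Ctsl (cathepsin L, a cysteine endopeptidase able to cleave elastin and to process other cathepsins, ENSMUSG00000021477.8, chromosome 13, 64359337 to 64370890) was at 369, 841 and 768 CPM in fat LYVE1+ and 204, 326 and 344 CPM in fat LYVE1- libraries. In the aorta the values were 555, 408 and 514 CPM against 272, 322 and 299 CPM. Every LYVE1+ library exceeded every LYVE1- library of its tissue. Ctsl was 2.26-fold higher in LYVE1+ cells of fat (log2 1.18 ± 0.28, adjusted p = 0.0326) and 1.93-fold higher on average (0.95 ± 0.20, adjusted p = 0.0125), while the aortic value of 0.73 ± 0.28 did not pass (adjusted p = 0.326). The fat call ended when any of 9 single libraries was left out (all but aortic LYVE1+ 2, aortic LYVE1- 1 and fat LYVE1+ 1), with adjusted p from 0.0513 to 0.169, and when only the fat groups were fitted (0.151). The average call ended only with the prefix term (0.0642) among the alternatives run.

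Ctsd (cathepsin D, the main aspartic protease of lysosomes, ENSMUSG00000007891.14, chromosome 7, 142375911 to 142388038) was at 2109, 1830.4 and 2077 CPM in aortic LYVE1+ and 1069, 1415 and 1421 CPM in aortic LYVE1- libraries. Fat gave 1829, 3360.2 and 3247 CPM in LYVE1+ and 1614, 1863 and 1682 CPM in LYVE1- cells. The aortic groups were apart, and in fat only library 1 of the LYVE1+ group came within the LYVE1- range. Its average difference was 1.59-fold (0.67 ± 0.15, adjusted p = 0.0215). Without aortic LYVE1+ 1 or 3, aortic LYVE1- 1, fat LYVE1+ 2 or 3, or fat LYVE1- 3 the adjusted p lay between 0.0511 and 0.0778, and it was 0.0967 with the prefix term. Some 34.4% of the exon bases of Ctsd are shared with Gm49369 on the same strand, which is annotated but not among the genes counted.

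Ctsb, the most abundant protease, reached 12998, 12490.0 and 12344 CPM in aortic LYVE1+ libraries and 7453, 10293 and 9663 CPM in aortic LYVE1- libraries. In fat, 8111, 14533 and 15757 CPM stood against 5052, 9896 and 9694 CPM. Library 1 was the lowest of its group in 3 of 4 groups, the aortic LYVE1+ group being the exception. No call was made (average 0.55 ± 0.20, adjusted p = 0.128), while DESeq2 called the average (adjusted p = 0.0332). Ctso, a less studied cysteine cathepsin, was at 81.6, 134 and 128 CPM in fat LYVE1+ and 55.9, 79.3 and 86.6 CPM in fat LYVE1- libraries, against 108 to 142 and 98.2 to 113 CPM in the aorta. It was not called either (fat 0.63 ± 0.21, adjusted p = 0.128). Ctsf, a cysteine cathepsin that can cut the MHC class II invariant chain, showed 154, 148 and 137 CPM in aortic LYVE1+ and 78.9, 108 and 108 CPM in aortic LYVE1- libraries without a call (0.57 ± 0.26, adjusted p = 0.423). Its fat values overlapped, at 65.5 to 103 CPM in LYVE1+ and 38.4 to 86.1 CPM in LYVE1- cells.

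The proteases were not uniform. Ctss, the invariant chain protease of antigen-presenting cells, had log2 values of -0.09 ± 0.17 in the aorta and -0.10 ± 0.17 in fat, and Ctsz -0.00 ± 0.17 and -0.20 ± 0.17. None of these 4 values passed. The carboxypeptidase partner of neuraminidase Ctsa, the dipeptidyl peptidase Ctsc, the aminopeptidase Ctsh, the asparaginyl endopeptidase Lgmn and the tripeptidyl peptidase Tpp1 were all positive and uncalled, with log2 values from 0.11 to 0.34 in the aorta and from 0.39 to 0.43 in fat. With the prefix term Ctsc came to -0.031 in the aorta. The ratio of Ctsl to Ctss counts was 0.318 ± 0.0347 (SD, n = 3) in aortic LYVE1+ and 0.183 ± 0.0312 in aortic LYVE1- libraries, and 0.501 ± 0.121 and 0.21 ± 0.0412 in fat. Ranges of this ratio did not overlap between sorts in either tissue, being 0.279 to 0.347 against 0.148 to 0.209 in the aorta and 0.364 to 0.594 against 0.163 to 0.239 in fat. Because a ratio within a library cancels the library's scaling, it compares the 2 genes directly, and it was given no test. Ctsl by itself already separated the sorts in both tissues, so the ratio is not a separate result.

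Ctsk, the collagenase of osteoclasts, was near the bottom of the list at 0.996 to 8.76 CPM. Its fold change was -0.52 ± 0.66 in the aorta and 0.24 ± 0.69 in fat, and neither passed. Fibroblast markers, whose cells also make Ctsk, summed to between 426 and 2610 CPM in the 12 libraries, and the 7 osteoclast markers to between 347 and 751 CPM. Most of the latter sum was Mmp9, with group means of 370.4 to 599.1 CPM, and Nfatc1, with 88.4 to 113.7 CPM. Dcstamp had a mean of 22.03 CPM in aortic LYVE1- against 0.34 CPM in aortic LYVE1+ libraries, and Calcr and Oscar were at 0 in all 12. On average 2 of the 5 tested osteoclast markers were called lower in LYVE1+ cells.

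Cst3, the cystatin that blocks the cysteine cathepsins above (ENSMUSG00000027447.6, chromosome 2, 148871722 to 148875692), was at 2958, 3155 and 3227 CPM in aortic LYVE1+ and 2662, 3059 and 3346 CPM in aortic LYVE1- libraries. In fat LYVE1+ libraries it was at 2515, 3049 and 2953 CPM, and in fat LYVE1- libraries at 1703, 1991 and 2062 CPM. The fat LYVE1- group lay below the other 3. Between sorts the log2 difference was 0.04 ± 0.15 in the aorta (adjusted p = 0.953) and 0.57 ± 0.15 in fat (adjusted p = 0.0644), so that no call was made in either, and the difference between those differences was -0.52 ± 0.22 (unadjusted p = 0.0327, adjusted p = 0.793). The fat value was called by DESeq2 (0.000418), with plain library size (0.0478), with the block (0.0075) and without both fat libraries numbered 1 (0.0109). Summed counts of 9 cysteine cathepsins over Cst3 were 6.58 ± 0.576 and 5.33 ± 0.268 in the aorta and 7.02 ± 1.57 and 7.36 ± 1.51 in fat, for LYVE1+ and LYVE1- cells respectively.

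**Figure D4:**
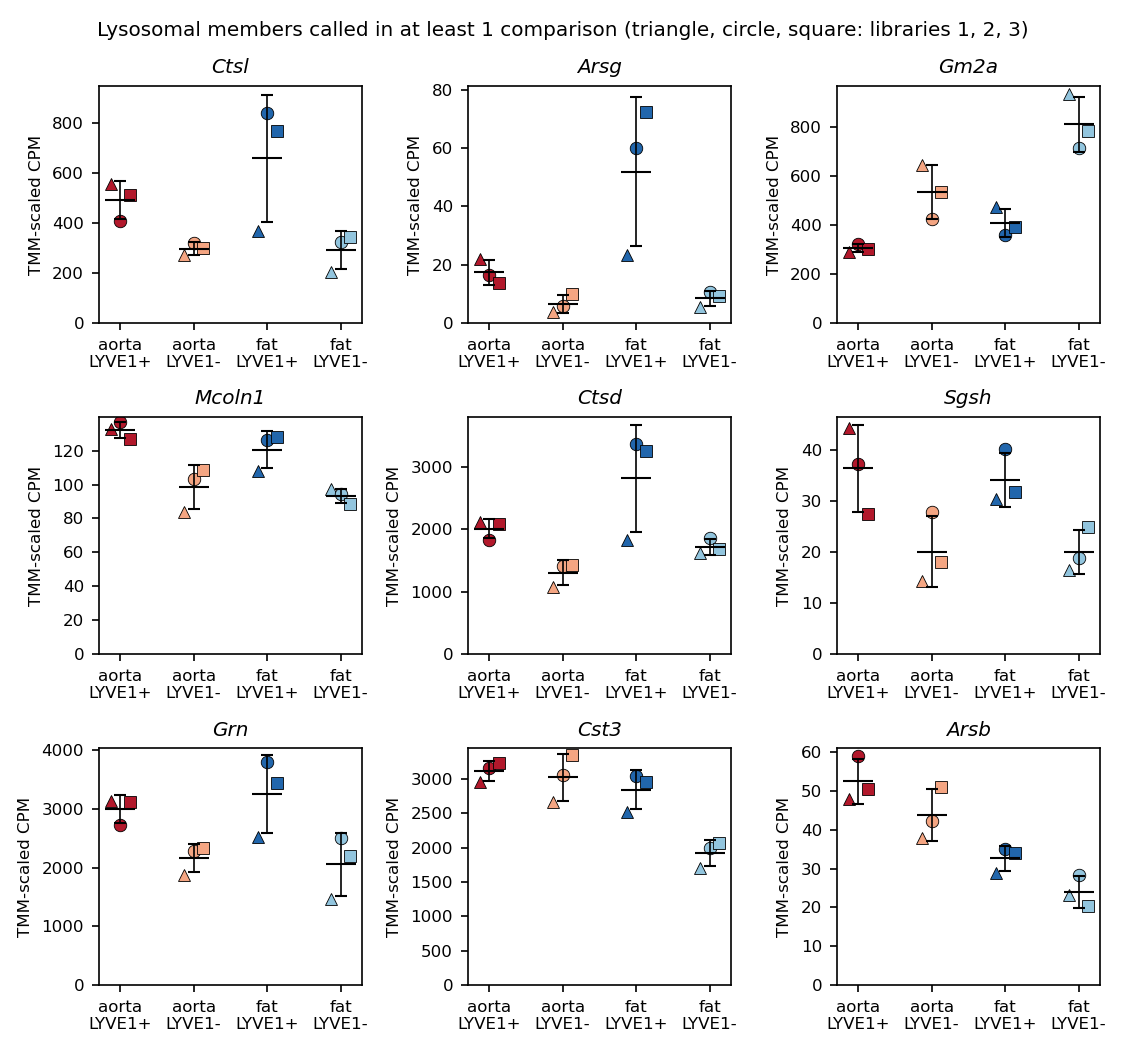
TMM-scaled CPM (y axes start at 0) of the 9 genes called in at least 1 comparison, with each library as a point (triangle, circle and square for libraries 1, 2 and 3) and the group mean with 1 SD. Arsg in fat LYVE1+ cells runs from 23.2 to 72.5 CPM, above all other groups, and Gm2a is higher in LYVE1- cells of both tissues.

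Glycan hydrolases held the largest fold change of the list. Arsg (arylsulfatase G, which removes a sulfate from heparan sulfate, ENSMUSG00000020604.12, chromosome 11, 109473374 to 109573330) was at 23.2, 60.1 and 72.5 CPM in fat LYVE1+ and 5.37, 10.5 and 9.36 CPM in fat LYVE1- libraries. Aortic values were 22.1, 16.4 and 13.6 CPM and 3.75, 5.9 and 10 CPM. All LYVE1+ libraries lay above all LYVE1- libraries in both tissues. The difference was 6.17-fold in fat (log2 2.62 ± 0.44, adjusted p = 0.00537) and 4.04-fold on average (2.02 ± 0.31, adjusted p = 0.00199), and both calls held in every alternative run, with adjusted p up to 0.0345 in fat. In the aorta the estimate was 1.41 ± 0.43 and was not called (adjusted p = 0.21), and the difference between tissues was -1.22 ± 0.60 (adjusted p = 0.862).

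Sgsh (sulfamidase, another enzyme of heparan sulfate breakdown, ENSMUSG00000005043.12, chromosome 11, 119343425 to 119355536) was at 44.4, 37.4 and 27.5 CPM in aortic LYVE1+ and 14.4, 27.9 and 18 CPM in aortic LYVE1- libraries. The fat libraries gave 30.3, 40.1 and 31.8 CPM in LYVE1+ and 16.5, 18.8 and 24.9 CPM in LYVE1- cells. Sorts overlapped in the aorta and were apart in fat. On average Sgsh was 1.75-fold higher in LYVE1+ cells (0.81 ± 0.19, adjusted p = 0.0215), a call lost without aortic LYVE1+ 1, aortic LYVE1- 1 or 3, or fat LYVE1+ 2 (0.0561 to 0.0722), with the prefix term (0.197) and with the block and without both fat libraries numbered 1 (0.0519). The opposite-strand gene Card14 covers 21.6% of Sgsh exon bases and was at 0 to 0.497 CPM in the group means.

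Other enzymes acting on heparan sulfate were not called. Idua, the iduronidase, was at 99, 122 and 128 CPM in fat LYVE1+ and 58.3, 93.1 and 83.8 CPM in fat LYVE1- libraries (0.57 ± 0.17, adjusted p = 0.101), and at up to 111 and up to 103 CPM in the aorta (0.19 ± 0.17). Naglu, Gusb and Ids had aortic values of 0.29, 0.37 and -0.18 and fat values of -0.04, -0.16 and -0.07. Hexa, the alpha chain of beta-hexosaminidase and the highest glycan hydrolase per exon length, was at 1372, 1241 and 1356 CPM in aortic LYVE1+ and 822, 1048 and 1046 CPM in aortic LYVE1- libraries. Its fat values of 1039.5, 1549 and 1584 CPM and 754, 1163 and 1070.1 CPM overlapped, and it was not called (average 0.46 ± 0.14, adjusted p = 0.0803). DESeq2 called the Hexa average (adjusted p = 0.0129). Over the 16 glycan hydrolases, 12 values were positive in each tissue, with medians of 0.25 and 0.20. Gaa, Glb1, Man2b1, Manba and Fuca1, which cut glucose, galactose, mannose and fucose from glycans, were positive in both tissues, from 0.22 to 0.36 in the aorta and from 0.07 to 0.49 in fat. Gla, the alpha-galactosidase, was at -0.24 and -0.12, Galns at -0.17 and 0.04, and Neu1, the neuraminidase, at -0.06 and 0.23. Neu1 turned to 0.13 in the aorta with the prefix term, and Galns to -0.08 in fat without both fat libraries numbered 1. None of these 8 was called in either tissue.

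Gm2a was the one gene of the list called lower in LYVE1+ cells, in fat and on average. It encodes the GM2 activator, a lipid-binding protein that lifts ganglioside GM2 out of the membrane for beta-hexosaminidase (ENSMUSG00000000594.7, chromosome 11, 55098115 to 55113029). Its level was 291, 325 and 304 CPM in aortic LYVE1+ and 647, 423 and 535 CPM in aortic LYVE1- libraries, and 473, 359.8 and 393 CPM in fat LYVE1+ and 936, 717 and 783 CPM in fat LYVE1- libraries. Every LYVE1- library exceeded every LYVE1+ library of the same tissue. Gm2a was 1.99-fold lower in LYVE1+ cells of fat (log2 -0.99 ± 0.18, adjusted p = 0.00786) and 1.86-fold lower on average (-0.90 ± 0.13, adjusted p = 0.00118). The aortic value was -0.80 ± 0.18 (adjusted p = 0.0739), and it was called by DESeq2 (0.000881), with the block (0.028) and without both fat libraries numbered 1 (0.00616). In fat the call ended without fat LYVE1+ 2 (0.0522) and with only the fat groups fitted (0.0562).

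Gm2a and Hexa act on the same substrate, so their counts were set against each other within libraries. The ratio of Hexa to Gm2a was 4.71, 3.82 and 4.46 in aortic LYVE1+ and 1.27, 2.48 and 1.96 in aortic LYVE1- libraries. In fat it was 2.2, 4.3 and 4.03 in LYVE1+ and 0.806, 1.62 and 1.37 in LYVE1- libraries. Group means were 4.33 ± 0.459 against 1.9 ± 0.604 and 3.51 ± 1.14 against 1.26 ± 0.418 (SD, n = 3), and LYVE1+ and LYVE1- ranges did not overlap in either tissue. As a description of 2 genes chosen with their values known, this ratio has no test.

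Psap and Galc were the other lipid genes with negative values in both tissues, that of Galc in fat turning to 0.07 without both fat libraries numbered 1. Psap was at 3840.0, 3936 and 3281 CPM in aortic LYVE1+ and 4135, 4197 and 4553 CPM in aortic LYVE1- libraries, and at 3445, 4534 and 4584 CPM and 5429, 5959.6 and 5384 CPM in fat. LYVE1- libraries were above LYVE1+ libraries in both tissues, without a call (average -0.32 ± 0.11, adjusted p = 0.123). DESeq2 called its fat value (-0.42, adjusted p = 0.0318). Pla2g15, the lysosomal phospholipase A2, was at 189, 332 and 366 CPM in fat LYVE1+ and 127, 212 and 201 CPM in fat LYVE1- libraries (0.72 ± 0.26, adjusted p = 0.181), against 254 to 319.8 and 192 to 309 CPM in the aorta. Smpd1, acid sphingomyelinase, was at 73, 80.2 and 77.4 CPM in aortic LYVE1+ and 51, 67.1 and 65.6 CPM in aortic LYVE1- libraries, with 52.2 to 73.2 and 30.6 to 57.4 CPM in fat. It too was not called (average 0.44 ± 0.15, adjusted p = 0.109). Acid ceramidase (Asah1), acid lipase (Lipa), the cholesterol carrier Npc2, the thioesterase Ppt1 and arylsulfatase A (Arsa) lay between 0.01 and 0.14 in the aorta and between 0.06 and 0.34 in fat, with no call. With the prefix term Asah1, Lipa and Ppt1 were at -0.13, -0.11 and -0.04 in the aorta.

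Of the remaining classes, Acp5, the tartrate-resistant acid phosphatase also made by osteoclasts, was at 16.2, 13.7 and 29.4 CPM in aortic LYVE1+ and 42.3, 19 and 38.1 CPM in aortic LYVE1- libraries. Those groups overlapped, and the log2 value of -0.74 ± 0.34 did not pass (adjusted p = 0.437). Acp2, the most abundant of its class per length, was at 155 to 201 CPM over the aorta and 115 to 212 CPM over fat, with log2 values of -0.03 ± 0.21 and -0.11 ± 0.21 whose sign changed when some single libraries were left out. Dnase2a, which digests engulfed DNA, stood at 0.23 ± 0.14 in both tissues and was not called.

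Grn, or progranulin, a secreted protein that is taken to lysosomes and supports their enzymes (ENSMUSG00000034708.10, chromosome 11, 102430315 to 102437048), was at 3143, 2731 and 3126 CPM in aortic LYVE1+ and 1882, 2282 and 2330.1 CPM in aortic LYVE1- libraries. Fat held 2524, 3801 and 3452 CPM in LYVE1+ and 1470.1, 2499.7 and 2197 CPM in LYVE1- cells. The sorts were apart in both tissues, and in fat the nearest libraries were at 2524 and 2499.7 CPM. Grn was 1.48-fold higher on average (0.57 ± 0.15, adjusted p = 0.0418). That call was lost when any library other than fat LYVE1+ 1 or fat LYVE1- 2 was left out (0.0545 to 0.129) and with the prefix term (0.148). Tfeb, the transcription factor that acts on many of these genes, was at 15.4 to 27.1 CPM in all 12 libraries, with -0.19 ± 0.22 in the aorta and -0.17 ± 0.23 in fat.

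The title prefix could be looked at in the aorta only through library 3 of the LYVE1+ group, which shares RHH with the 3 LYVE1- libraries. It had Gm2a at 304 CPM against 423 to 647, Ctsl at 514 CPM against 272 to 322, Ctsd at 2077 CPM against 1069 to 1421, Grn at 3126 CPM against 1882 to 2330.1 and Arsg at 13.6 CPM against 3.75 to 10. Each of these 5 lay on the same side as in the other 2 LYVE1+ libraries. All were called with this library in the fit, so they are no separate check of the prefix. Sgsh, at 27.5 CPM, fell inside the LYVE1- range of 14.4 to 27.9 CPM. With a prefix term in the fit 2 genes were called on average, Arsg (1.84, adjusted p = 0.0224) and Gm2a (-0.90, adjusted p = 0.0197; background 1.96%).

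The size of the sort difference was then set side by side in the 2 tissues, whose libraries are separate. Over the 50 genes 35 were positive in both, 10 negative in both and 5 of opposite sign (Ctsk, Galns, Gusb, Naglu and Neu1). The same counts over all 14216 genes were 4497, 4621 and 5098. Pearson's r between the aortic and fat log2 fold changes was 0.81 and Spearman's rho 0.701 across the 50 genes, compared with 0.31 and 0.348 across all 14216. The sets differ in abundance, since 48 of the 50 genes lay above the median gene per exon length. Genes of matched level were not compared, so these values do not set the list apart from other abundant genes. Genes are not independent replicates, and within a tissue all genes share the same 6 libraries, their depth and their scaling, so no p is given. No gene of the list passed the test of a difference between the tissues' sort effects (background 0.155%), Cst3 alone had an unadjusted p under 0.05 (background 6.06%), and DESeq2 also called 0 (background 0.725%).

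**Figure D5:**
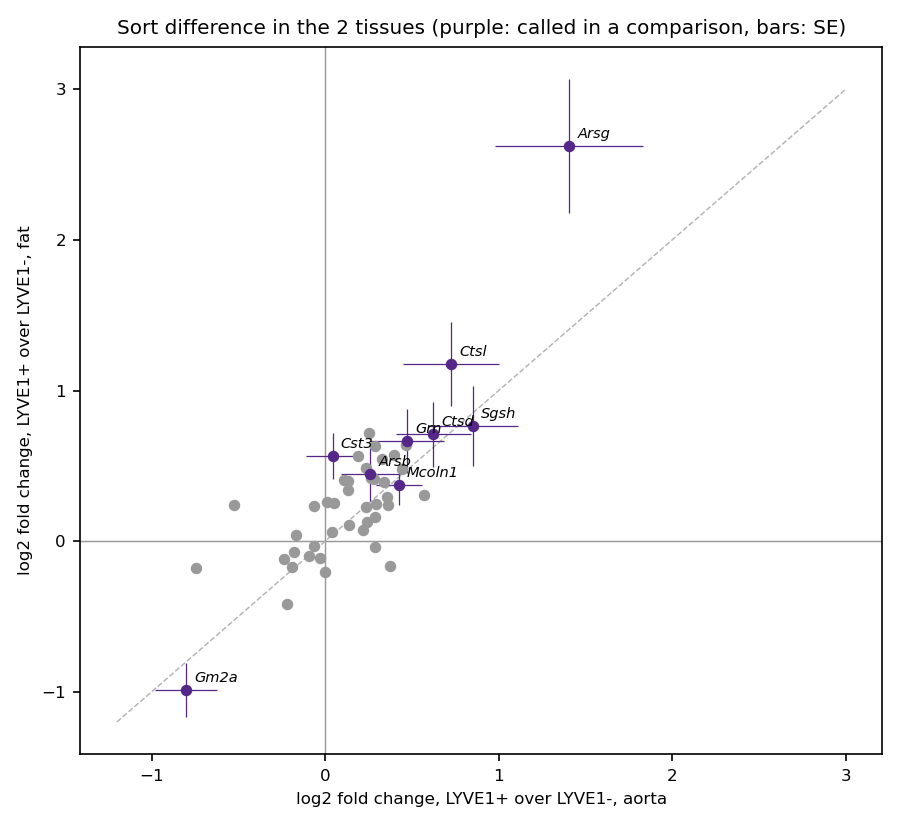
Log2 fold change of LYVE1+ over LYVE1- cells in aorta (x axis) and fat (y axis) for the 50 genes, with bars of 1 SE on the 9 genes called in any comparison and a dashed line of equality. Points run from Gm2a at -0.80 and -0.99 to Arsg at 1.41 and 2.62, and 35 of 50 lie above 0 on both axes.

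Tissues were also compared within each sort. Among LYVE1+ cells no gene of the list passed (background 3%), with 7 at an unadjusted p under 0.05 (2 higher and 5 lower in the aorta, background 15.3%) and 4 called by DESeq2 (background 6.49%). Arsb came nearest (0.68 ± 0.17, adjusted p = 0.0521), followed by Dnase2a (-0.52 ± 0.14, adjusted p = 0.0646) and Arsg (-1.59 ± 0.42, adjusted p = 0.0656). For these 3 genes the aortic LYVE1+ values did not overlap the fat LYVE1+ values. That held for 5 genes higher and 4 lower in the aorta (background 11.3% and 9.29%).

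Among LYVE1- cells 2 genes passed (background 2.48%), both higher in the aorta. Cst3, with the values above, was 1.58-fold higher there (0.66 ± 0.16, adjusted p = 0.045). Arsb (arylsulfatase B, which desulfates dermatan and chondroitin sulfate, ENSMUSG00000042082.6, chromosome 13, 93771630 to 93943016) was at 37.9, 42.4 and 51 CPM in aortic LYVE1- and 23.3, 28.5 and 20.3 CPM in fat LYVE1- libraries, 1.82-fold higher in the aorta (0.86 ± 0.17, adjusted p = 0.0209). Its LYVE1+ values were 48, 59.1 and 50.4 CPM in the aorta and 28.8, 35 and 34 CPM in fat. Values did not overlap between tissues for 10 genes higher and 4 lower in aortic LYVE1- cells (background 11.2% and 9.9%). Both calls moved with single libraries: without aortic LYVE1- 2, aortic LYVE1- 3 or fat LYVE1- 3 no gene was called, and without any of 8 others Arsb alone was, only the fit without fat LYVE1+ 1 giving 3. Fibroblast markers had positive log2 values in this comparison for 7 of 8 genes (2 called). They summed to 1350, 2300 and 1850 CPM in aortic LYVE1- and 1040, 562 and 547 CPM in fat LYVE1- libraries, and their part in the difference was not tested.

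Neighbouring genes of the lysosome give the setting. Of the 19 V-ATPase genes, whose pump acidifies the lumen, none was called in the aorta and 1 was lower in fat LYVE1+ cells, where 3.93% of all genes were called: Atp6v0d2, at -1.29 ± 0.33 (adjusted p = 0.0442). Atp6v0d2 is also among the osteoclast markers above. Among 32 other lysosomal membrane proteins, Tpcn1, an endolysosomal cation channel, was higher (1.05 ± 0.22, adjusted p = 0.0181) and Slc15a3, a peptide and histidine transporter, lower (-1.64 ± 0.37, adjusted p = 0.0272) in LYVE1+ cells of fat, against the same 3.93%, with no call in the aorta. Median log2 values of these 2 lists were 0.04 and 0.18 in the aorta and 0.10 and 0.14 in fat.

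Of 32 other lysosomal hydrolases, 1 was called in the aorta (all genes 0.542%) and 6 in fat (all genes 3.93%), 4 of them higher and 2 lower in LYVE1+ cells. Plbd1, a phospholipase B-like protein, was the one lower in both tissues, at 63.1, 63.3 and 54.8 CPM in aortic LYVE1+ and 396, 295 and 349 CPM in aortic LYVE1- libraries (-2.52 ± 0.21, adjusted p = 0.000186), and at 233, 129 and 141 CPM and 606, 641 and 641 CPM in fat (-1.91 ± 0.21, adjusted p = 0.00047). Smpdl3a, a sphingomyelinase-like phosphodiesterase, was higher in fat LYVE1+ cells (1.19 ± 0.22, adjusted p = 0.00873), as were Hyal1, which cuts hyaluronan, the ligand of LYVE1 (1.01 ± 0.19, adjusted p = 0.00877), and the dipeptidyl peptidase Dpp7 (0.86 ± 0.16, adjusted p = 0.0093).

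In the next 3 lists the share of all genes called in fat was again 3.93%. Enzyme delivery genes gave 2 calls of 24 in fat, Ap3s1 of the AP-3 adaptor higher (0.81 ± 0.20, adjusted p = 0.0454) and the endocytic receptor Lrp1 lower (-0.57 ± 0.14, adjusted p = 0.0457), and none in the aorta. Of 20 genes of the MiT family and its control, Tfec, a macrophage relative of Tfeb, was higher in fat LYVE1+ cells (0.81 ± 0.17, adjusted p = 0.0184), and its aortic value was 0.77 ± 0.16 (adjusted p = 0.0625). Among 9 tested protease inhibitors, Serpinb1a (1.53 ± 0.23, adjusted p = 0.00298) and Serpinb6a (1.16 ± 0.23, adjusted p = 0.0143) were higher in LYVE1+ cells of fat. Both are known as inhibitors of serine proteases.

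Exon overlap limits some values, since no source used here says whether strand was used in counting. Of the 50 genes, 21 share exon bases with another gene, 19 of them with a gene on the opposite strand. For Ctsa, 10.5% of exon bases lie under Pltp on the opposite strand. Group means of Pltp were 1660 CPM in LYVE1+ and 1310 CPM in LYVE1- cells of the aorta, and 2240 and 1340 CPM in fat. Its part in the positive Ctsa values was not tested. For Arsb 32.3% of exon bases lie under Gm26527, which had 0 CPM in every group. Ctsl shares 26.8% with Gm47123 on the opposite strand, which is annotated but not among the genes counted.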

How the data were processed

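RNA from sorted macrophages (2 ng per library) had been made into Smart-seq2 libraries and sequenced as paired reads of 51 cycles, per the labels' protocols. The authors deposited raw counts per gene. STAR 2.5.2b, featureCounts 1.5.0, edgeR 3.14.0 and genome GRCm38 are named, without their roles, in the submitters' processing notes, and the strand setting is not given in the sources used here. A second deposited table of log2 values was not used.

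Symbols, exon lengths and positions came from GENCODE M21 (GRCm38), which named 46005 of 46517 genes. Genes passing filterByExpr (14216) were fitted in R 4.3.3 with edgeR 4.0.16 (quasi-likelihood test, TMM factors, 1 mean per group over all 12 libraries, 8 residual degrees of freedom). The p-values are two-sided and, unless called unadjusted, Benjamini-Hochberg adjusted over all genes, and 0.05 was the threshold. The 6 contrasts were LYVE1+ against LYVE1- in aorta, in fat and averaged, their interaction, and aorta against fat in each sort. The fit was also run on simulated data, with changes larger than most of those reported here and with libraries drawn independently. That run does not show how well smaller changes are found. Alternatives used DESeq2 1.42.0, other scaling, no filter, only 2 groups, a prefix term, a replicate block, and libraries or genes left out.

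Library numbers come from the sample descriptions. Same-numbered fat libraries correlated in their deviations (0.542, 0.334 and 0.239), and a block on the number was run. Fat LYVE1+ 2 with LYVE1- 3 and LYVE1+ 3 with LYVE1- 2 correlated about as much (0.247 and 0.289). The values therefore set number 1 apart but do not show that numbers 2 and 3 pair the libraries. Same-numbered aortic libraries did not correlate (-0.045, -0.101 and -0.206). Named genes are those called in any contrast, those with the smallest unadjusted p in the sort contrasts up to about 20, and the most abundant per length of each class, and, from each other lysosomal list, up to 4 called genes with the smallest adjusted p. The members and gene lists were chosen with earlier results of these data known. Sums of counts carry counting error and the spread between libraries, and with 3 libraries per group small differences are not detectable.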

Additional observations from a re-analysis of the deposited data

How the results depend on the processing

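Counts of the 50 genes called moved with the test and with the fat libraries numbered 1. In the aorta the 0 calls (all genes 0.542%) became 2 with DESeq2, 2 with no filter on low counts (all genes 1.33%), 2 with only the 2 groups compared (2.15%) and 8 without both fat libraries numbered 1. In fat the 3 became 9 with DESeq2, 1 with only the 2 groups compared (all genes 1.64%) and 12 without both those libraries. On average 7 became 15 with DESeq2, 2 with the prefix term and 22 without both. Between tissues in LYVE1+ cells 0 became 4 with DESeq2, 1 with plain library size (all genes 3.02%), 3 with no filter (3.24%) and 6 without both fat libraries numbered 1 (6.03%). In LYVE1- cells 2 became 5 with DESeq2 (all genes 5.96%), 1 with no filter (2.55%), 0 with the prefix term (0.0492%), 0 with only the 2 groups compared (2.08%) and 8 without both (6.93%). The cause was not tested. Leaving out 1 library at a time gave 0 to 1 calls in the aorta, 1 to 12 in fat, 3 to 18 on average, 0 to 0 for the interaction, 0 to 2 between tissues in LYVE1+ and 0 to 3 in LYVE1- cells.

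With the replicate block, counts were 1 in the aorta, 13 in fat, 23 on average and 0 for the interaction, and with the block and without both fat libraries numbered 1 they were 2, 7, 12 and 0. Aortic library numbers did not pair the samples, and fat LYVE1+ 3 correlated best with fat LYVE1- 2 (0.289).

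Over all 50 genes and the 3 sort comparisons, signs turned in 52 values (16 genes) with 1 library left out and in 22 values (11 genes) under the other alternatives, none of them called before or after. Cst3 in the aorta ran from -0.0401 (without aortic LYVE1- 1) to 0.1234 over the fits with 1 library left out. Acp2 ran from -0.1315 to 0.028 in the aorta, from -0.2852 to 0.0802 in fat and from -0.1565 to 0.0262 on average. Other scalings moved the median of all genes by at most 0.04.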
